A study of Mus musculus with 2 samples.

Results

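Transcripts of the TGF-beta, BMP and activin signalling system were compared between areas with and without protein globules in the liver of PIZ mice. The system was represented by 52 genes, each of them a ligand, latency protein, receptor, Smad, antagonist or target, chosen by name from 30142 genes that a probe set of the array names alone. All 52 were found, each by 1 probe set. PIZ mice are C57BL/6 animals that carry the human alpha-1-antitrypsin gene with its Z mutation (ATZ) under its own human promoter, and model alpha-1-antitrypsin deficiency (ATD). The mutant protein collects in hepatocytes as globules. Untreated mice on standard chow, killed at 3 months of age, gave both groups. Globules were made visible with Cresyl Violet, and globule-containing and globule-free areas were cut from frozen sections by laser. Each group is 1 array of RNA pooled from 2 mice, so both groups carry the transgene and neither is a liver without it. The sources used here do not say whether both pools came from the same mice.

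TGF-beta ligands are secreted in a latent form, bound to latent TGF-beta binding proteins, and signal once released through a type II and a type I receptor. BMPs and activins use related receptor pairs. The receptors phosphorylate Smad proteins, which join Smad4 and enter the nucleus, where inhibitory Smads and other targets are induced that feed back on the pathway. In liver, TGF-beta is known for the activation of stellate cells and for fibrosis, BMPs for the control of the iron hormone hepcidin, and the activin subunits C and E as products of hepatocytes.

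Values are log2 signals, given for areas with globules and then without, and a difference is the former minus the latter. With 1 array per group no test, SD or standard error exists, and each value describes these 2 arrays. Genes were counted where the mean of both arrays reached a floor of 4.76, which left 15023 genes. Of these, 6.47% were higher by 2-fold or more and 5.26% lower by as much in globule-containing areas, and the median difference was 0.05. Background, taken from olfactory and vomeronasal receptor probe sets, was 4.85 on the globule-containing and 5.04 on the globule-free array. Where the dimmer array lay at background, the fold is a lower bound computed against that level. Probe sets differ in their response, so levels are compared between arrays and not between genes.

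The largest positive differences, higher in globule-containing areas, were those of the ligands Bmp5 and Gdf2, the follistatin-like gene Fstl1 and the target Tgfbi. The largest negative difference was that of the activin subunit Inhbc. Of the 52 genes, 41 lay above the floor. Among these, 10 were higher by 2-fold or more, a share of 24.4% against 6.47% of all genes. They were Bmp5, Fstl1, Gdf2, Tgfbi, Skil, Tgfbr2, Tgfb3, Eng, Bmpr1a and Id3. Tgfb3 is counted by its deposited signals and reached the floor only through the globule-containing array. With dim values raised to background the count was 9, beside 5.98% of all genes. Only Inhbc and Id1 were lower by 2-fold or more, a share of 4.88% against 5.26% of all genes. The median difference of the 41 was 0.26, beside 0.05 over all genes above the floor, where positive signs were thus also the commoner ones. Of the 41, 31 had a positive and 10 a negative difference. The genes were chosen by function but with earlier results of these arrays known, so the shares describe and do not test. In bulk RNA of captured areas, more cells of a type and more RNA per cell cannot be told apart.

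**Figure D1:**
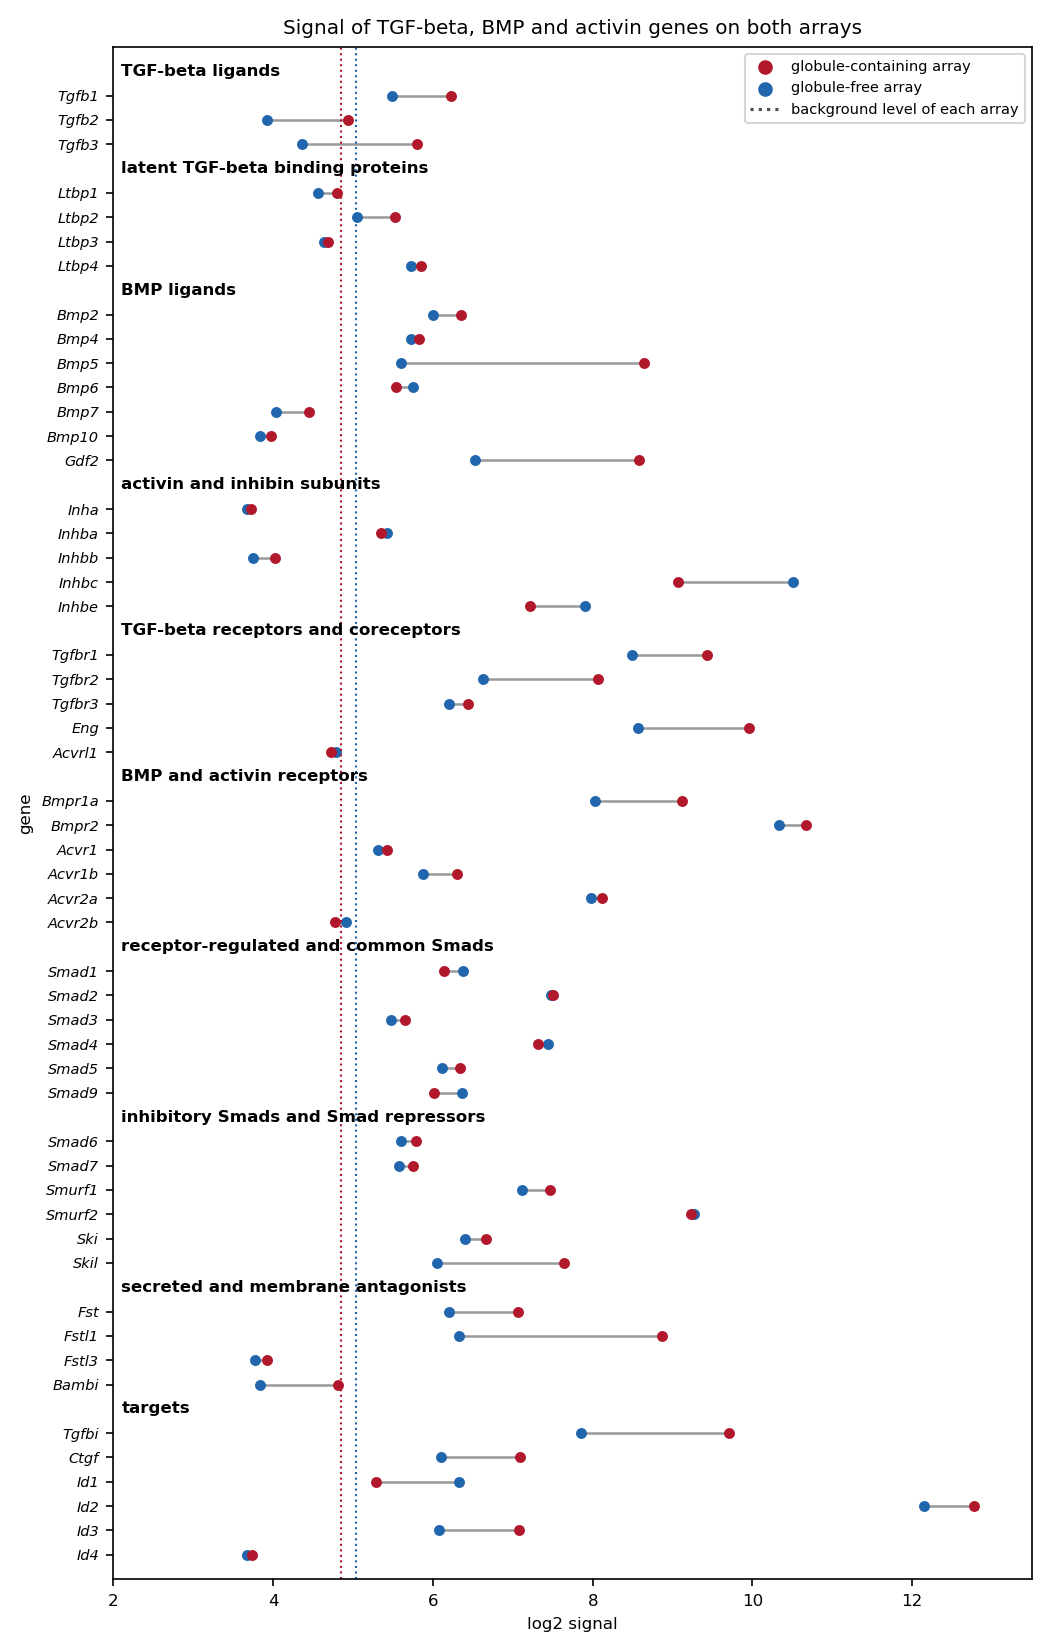
Log2 signal of all 52 genes on the globule-containing (red) and the globule-free array (blue), grouped by role, 1 array of RNA from 2 pooled mice per group; dotted lines give each array's background level of 4.85 and 5.04. Bmp5, Fstl1 and Gdf2 show the widest gaps to the right, Inhbc the widest gap to the left, and the Smad genes lie with both points close together.

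The share of higher genes moves with signal strength, so the system was also set beside genes of like brightness. All genes above the floor were divided by mean signal into 4 ranges of equal gene number. In the range between 6.68 and 8.74, 8.31% of genes and 6 of 11 members were higher by 2-fold or more. In the brightest range the values were 8.84% of genes and 2 of 7 members. In the range from 5.49 to 6.68 only 1 of 18 members was higher by 2-fold or more, beside 6.15% of genes there. In the dimmest range it was 1 of 5 members, beside 2.58% of genes. The members with a higher signal were thus found mostly among moderately bright probe sets. The 18 members in the range from 5.49 to 6.68 showed no such excess. The 1 in the dimmest range was Tgfb3, which was at least 1.70-fold higher when measured against background.

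**Figure D2:**
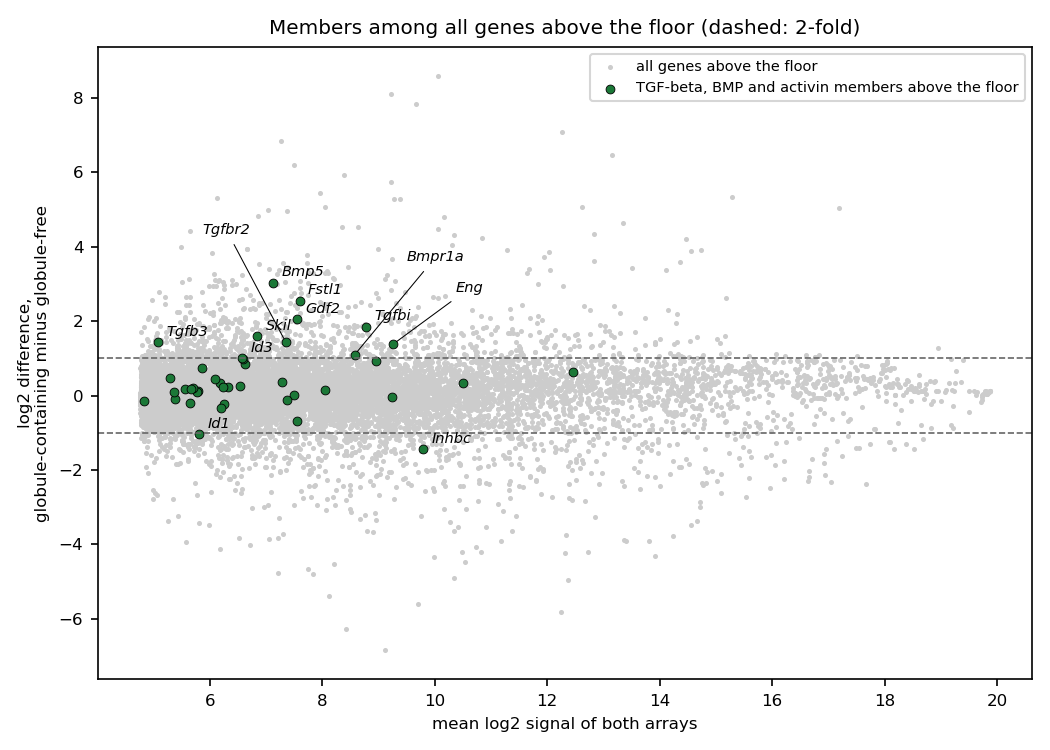
Difference (with minus without globules, log2) against mean log2 signal for 15023 genes above the floor (grey) and the 41 members among them (green), 1 array per group; dashed lines mark 2-fold. Bmp5 at 3.04 and Fstl1 at 2.55 lie highest and Inhbc at -1.44 lowest, all inside the cloud of all genes.

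Sequence upstream of the members was searched for letters that Smad proteins are known to bind. RefSeq promoter entries (GRCm38.p6) were matched for 39 of the 52 genes, and the 250 bases before each start were read on both strands. The letters were GTCTAGAC (the palindromic Smad box), CAGACA with its complement TGTCTG (part of the CAGA box of TGF-beta targets) and GGCGCC (a palindrome of BMP response elements), none of which contains another. GTCTAGAC occurred in none of 45 member promoters and in 0.167% of all 32851. CAGACA occurred in 15.6% of member promoters and 17.1% of all. GGCGCC occurred in 26.7% of member promoters and 9.59% of all, and the median GC content was 64.4% in member promoters and 52.4% in all. Of the 12 genes apart by 2-fold or more, 9 had an entry, and 4 of these held 1 match each. The sequences of these 4 are shown, 5′ to 3′ in the direction of the gene, because each holds a match. The genes are a ligand, a receptor, a target and the activin subunit with the lower signal. Capitals mark the match; Bmp5 and Inhbc hold the CAGA letters, and Bmpr1a and Tgfbi hold GGCGCC.
Bmp5 (GRCm38.p6, chr9:75775115-75775364, + strand): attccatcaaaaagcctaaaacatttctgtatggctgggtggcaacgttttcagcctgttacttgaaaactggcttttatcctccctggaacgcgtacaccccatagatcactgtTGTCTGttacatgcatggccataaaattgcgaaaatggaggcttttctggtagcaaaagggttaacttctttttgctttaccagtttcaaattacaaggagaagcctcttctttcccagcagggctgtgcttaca
Inhbc (GRCm38.p6, chr10:127370549-127370798, - strand): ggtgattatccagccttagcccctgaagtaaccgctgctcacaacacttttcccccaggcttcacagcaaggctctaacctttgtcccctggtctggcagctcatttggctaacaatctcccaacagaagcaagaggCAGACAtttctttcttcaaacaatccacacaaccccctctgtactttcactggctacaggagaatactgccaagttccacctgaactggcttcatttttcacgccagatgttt
Bmpr1a (GRCm38.p6, chr14:34502547-34502796, - strand): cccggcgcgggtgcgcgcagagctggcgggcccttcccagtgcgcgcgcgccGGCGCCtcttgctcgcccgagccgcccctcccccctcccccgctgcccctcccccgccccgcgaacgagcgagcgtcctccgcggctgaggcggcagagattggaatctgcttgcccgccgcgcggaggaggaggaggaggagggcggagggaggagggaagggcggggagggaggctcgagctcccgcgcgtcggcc
Tgfbi (GRCm38.p6, chr13:56609336-56609585, + strand): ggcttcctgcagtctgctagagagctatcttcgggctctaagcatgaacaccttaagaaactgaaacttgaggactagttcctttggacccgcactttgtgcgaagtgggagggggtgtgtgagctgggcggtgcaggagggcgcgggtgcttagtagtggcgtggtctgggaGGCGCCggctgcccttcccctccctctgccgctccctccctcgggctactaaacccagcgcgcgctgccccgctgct
A match of letters is a description of these windows. The same CAGA letters stand before Bmp5, which had the largest positive difference of the system, and before Inhbc, which had the largest negative one.

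Of the 3 TGF-beta ligands, Tgfb1 and Tgfb3 had the higher signal in globule-containing areas, but only Tgfb1 was above background on both arrays. Tgfb1, the isoform most studied in liver fibrosis, had a signal of 6.22 with globules and 5.48 without, 1.67-fold higher. Tgfb3 had 5.80 against 4.36. Since the globule-free signal lay at background, Tgfb3 was at least 1.70-fold higher, and its deposited difference of 1.43 overstates what can be measured. Tgfb2 had 4.93 against 3.93, lay below the floor by its mean and is given no fold or direction. With dim values raised to background its difference was -0.10.

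The latent TGF-beta binding proteins, which hold the ligands in the matrix, lay near background and differed little. Ltbp2 had 5.53 with globules and 5.05 without, and Ltbp4 had 5.85 against 5.72. Neither was 2-fold apart. Ltbp1 and Ltbp3 were above background on neither array.

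The BMP ligands separated into Bmp5 and Gdf2, which were far higher in globule-containing areas, and the endothelial ligands Bmp2 and Bmp6, which were not. Bmp5 had a signal of 8.64 with globules and 5.61 without, 8.20-fold higher, and only 0.526% of all genes above the floor had a larger positive difference. Gdf2, which encodes the circulating ligand BMP-9 made mainly by stellate cells in liver, had 8.59 against 6.53, 4.16-fold higher, with 1.35% of genes above it. Both were above background on both arrays, and in each the globule-containing signal was the higher one by more than 2 log2 units. Bmp6, the sinusoidal endothelial ligand that drives hepcidin, had 5.54 against 5.75, a difference of -0.21. Bmp2, its partner in that task, had 6.35 against 6.00, and Bmp4 had 5.83 against 5.73. The difference of Bmp4 was 0.10 as deposited and turned to -0.0039 with both arrays centred on their medians. Bmp7 and Bmp10 were above background on neither array.

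The activin and inhibin subunits were the 1 role group with no positive difference above the floor. Inhbc, which encodes the activin C subunit of hepatocytes, had 9.07 with globules and 10.51 without, 2.72-fold lower, and 2.70% of genes had a larger negative difference. Inhbe, which encodes activin E, also of hepatocytes, had 7.22 against 7.90, 1.60-fold lower. Inhba, the subunit of activin A, had 5.35 against 5.43. Inha and Inhbb were above background on neither array. Inhbc and Inhbe are direct neighbours in the order of protein-coding genes in the RefSeq table.

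Of 4 TGF-beta receptors and coreceptors above the floor, the type II receptor and endoglin were higher by 2-fold or more in globule-containing areas. The others were not 2-fold apart. Of all genes above the floor, 6.47% were higher and 5.26% lower by as much. Tgfbr2, the type II receptor that binds the ligand, had 8.07 with globules and 6.63 without, 2.71-fold higher. Tgfbr1, the type I kinase that it activates, had 9.42 against 8.49, 1.91-fold higher and so just under 2-fold. Eng, which encodes endoglin, a coreceptor of endothelial and stellate cells, had 9.95 against 8.57, 2.61-fold higher. The 3 genes were above background on both arrays, and each globule-containing signal was the higher one. Tgfbr3, the coreceptor betaglycan, had 6.44 against 6.20. Acvrl1, which encodes the endothelial type I receptor ALK-1 for Gdf2, had 4.72 against 4.79 and was above background on neither array.

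Of 6 receptors of BMPs and activins above the floor, 1 was higher by 2-fold or more and none lower by that much. Of all genes, 6.47% were higher and 5.26% lower by as much, and 6 genes are too few to tell either count from these shares. Bmpr1a, a type I BMP receptor of hepatocytes and other cells, had 9.12 with globules and 8.03 without, 2.13-fold higher. With both arrays centred on their medians its difference was 0.99, just short of 2-fold. Bmpr2, the type II BMP receptor, had 10.67 against 10.34. Acvr1b, the activin type I receptor, had 6.31 against 5.87, and Acvr2a, an activin type II receptor, had 8.12 against 7.98. Acvr1 had 5.42 against 5.32, and Acvr2b, at 4.77 against 4.91, was above background on neither array. Over both receptor groups, 9 of 10 genes above the floor had a positive difference, with a median of 0.38, beside 0.05 over all genes.

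None of the 8 Smad genes was 2-fold apart, and their differences ran from -0.35 to 0.23. With 6.47% of all genes higher and 5.26% lower by 2-fold or more, a count of 0 among 8 is near the share of genes at large. Among the Smads that receptors phosphorylate, Smad2 had 7.50 with globules and 7.48 without and Smad3 had 5.65 against 5.48, both of the TGF-beta and activin branch. The sign of the Smad2 difference turned under each of 3 other scalings of the arrays. Of the BMP branch, Smad1 had 6.14 against 6.37, Smad5 had 6.34 against 6.11 and Smad9 had 6.02 against 6.37. Smad4, the common partner, had 7.32 against 7.44. The inhibitory Smads, which are induced by the pathway and block it, were also close, with Smad6 at 5.79 against 5.60 and Smad7 at 5.74 against 5.58. All 8 were above background on both arrays. Expression says nothing here of Smad phosphorylation, which was not measured.

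Of the other nuclear and ubiquitin regulators, Skil stood out. Skil, which encodes the Smad repressor SnoN and is itself a target of TGF-beta, had 7.64 with globules and 6.05 without, 3.01-fold higher, with 2.61% of genes above it. Its relative Ski had 6.66 against 6.40. The Smad ubiquitin ligases Smurf1 and Smurf2 had 7.47 against 7.11 and 9.23 against 9.27. Skil was thus the 1 gene of 6 in this role group apart by 2-fold or more, beside 6.47% higher and 5.26% lower of all genes.

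**Figure D3:**
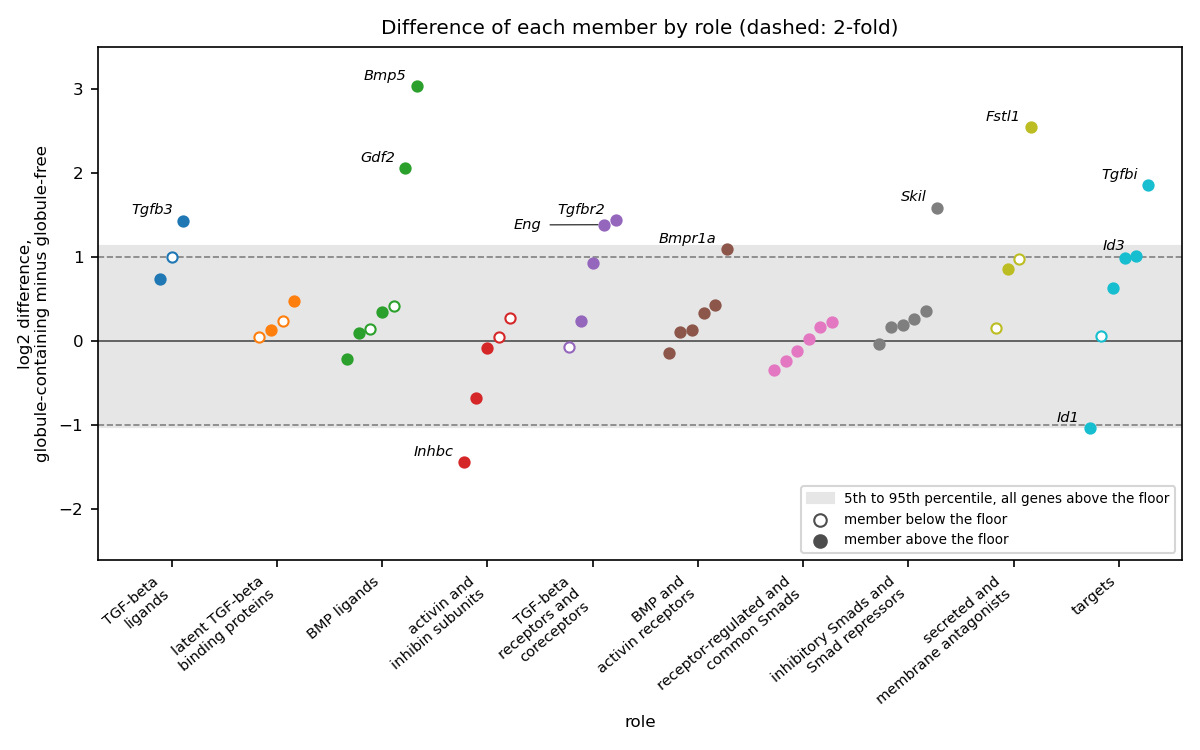
Difference of each of the 52 members (with minus without globules, log2) by role, 1 array per group; filled points lie above the floor, open points below it, the grey band spans the 5th to 95th percentile of all genes above the floor (-1.02 to 1.13), and dashed lines mark 2-fold. Bmp5, Gdf2, Fstl1, Tgfbi and Skil lie highest above the band, and Tgfbr2, Tgfb3 and Eng also lie above it. Inhbc lies below it and Id1 just below it, and the 2 groups that hold the Smads sit within it except for Skil.

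Of the 4 antagonists, 2 lay above the floor, and 1 of these, Fstl1, was higher by 2-fold or more in globule-containing areas. Of all genes above the floor, 6.47% were higher by as much. Fstl1, a secreted glycoprotein of mesenchymal cells in the follistatin-like family, had 8.87 with globules and 6.32 without, 5.86-fold higher, and 0.799% of genes had a larger positive difference. Fst, follistatin, which binds and neutralises activins, had 7.06 against 6.20, 1.81-fold higher. Bambi, a decoy receptor, had 4.81 against 3.84 and was above background on neither array, as was Fstl3.

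Targets went in both directions, and the Id genes did not share a direction. Tgfbi, a matrix protein named for its induction by TGF-beta, had 9.71 with globules and 7.86 without, 3.61-fold higher, with 1.76% of genes above it. Ctgf, the matricellular growth factor now named Ccn2, had 7.09 against 6.10, 1.99-fold higher and so at the edge of the 2-fold line. The Id genes encode inhibitors of helix-loop-helix transcription factors and are classical BMP targets. Id1 had 5.29 with globules and 6.32 without, 2.05-fold lower. Id3 had 7.08 against 6.07, 2.01-fold higher, and was just short of 2-fold under each of 3 other scalings, with differences from 0.91 to 0.95. Id2 had 12.78 against 12.15, 1.55-fold higher, and Id4 was above background on neither array. Id1 was therefore lower on the same array on which Id2 and Id3 were higher.

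Some members lie next to each other, or next to another gene of the family, in the genome. In the RefSeq order of protein-coding genes, Inhbc and Inhbe are neighbours with differences of -1.44 and -0.68. Gdf2 lies beside Gdf10, a further ligand of the family that is not among the 52, with differences of 2.06 and 3.03. Smad5 and Tgfbi are neighbours with 0.23 and 1.85, and Smad3 and Smad6 with 0.17 and 0.19. Acvrl1 and Acvr1b are neighbours too, with 0.43 for Acvr1b and no readable direction for Acvrl1, which lay below the floor.

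Other genes of the pathway were read from a list of 139 further ligands, antagonists, latency factors, receptors, regulators and targets, of which 126 were named alone by a probe set and 72 lay above the floor. Of the 72, 19 were higher and 3 lower by 2-fold or more in globule-containing areas, shares of 26.4% and 4.17%. Over all genes above the floor the shares were 6.47% and 5.26%. The median difference of the further genes was 0.40, leaving out the saturated Hamp and Hamp2. Without the genes that are also in a cell type marker list, 13 of 65 were higher by 2-fold or more, and the median difference was 0.24. Among further ligands, Gdf10 had 9.27 with globules and 6.24 without, 8.15-fold higher. Bmp8b was at least 1.37-fold higher, Bmp1, a protease that processes procollagen and BMP antagonists, 1.53-fold lower, and Gdf7 had 4.92 against 4.73. None of the 3 further antagonists above the floor was 2-fold apart, a count near the share of genes at large. Bmper was 1.67-fold lower, Twsg1 1.36-fold higher, and Dand5 had 5.22 against 5.09.

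Of 16 genes of TGF-beta storage and activation above the floor, 8 were higher and 2 lower by 2-fold or more in globule-containing areas. The other 6 were within 2-fold. Of all genes above the floor, 6.47% were higher and 5.26% lower by as much. The median difference was 1.02, and 13 of the 16 differences were positive. The log2 of the summed signal of all 21 genes found was the lower one with globules, at 17.10 against 18.08. That sum follows the largest signals, first of all Plg, which had 15.64 against 17.68. The proteoglycans Dcn, decorin, and Bgn, biglycan, which bind TGF-beta in the matrix, were 10.7-fold and 10.5-fold higher. Thbs1, thrombospondin 1, an activator of the latent complex, had 6.78 with globules and 4.82 without, at least 3.36-fold higher. The proteases Mmp14 and Mmp2 were 3.13-fold and at least 2.51-fold higher, Tgm2, a cross-linking transglutaminase, 3.06-fold, Itgb5, an integrin subunit, 2.57-fold and Fmod, fibromodulin, at least 1.70-fold, counted by its deposited signals. Plg, the hepatocyte precursor of plasmin, was 4.11-fold lower and Fn1, fibronectin, 2.01-fold lower. Of the 8 higher genes, Mmp2 and Fmod reached the floor only through the globule-containing array, and the bound of Fmod lay below 2-fold. The 8 also include Dcn, which is in the stellate cell list too. Without Dcn, 7 of 15 were higher by 2-fold or more, with a median of 0.69.

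Of 15 TGF-beta targets outside the 52 that lay above the floor, 8 were higher by 2-fold or more and 7 were within 2-fold. None was lower by that much, and the median was 1.24. Of all genes above the floor, 6.47% were higher and 5.26% lower by as much. Cdkn1a, the cell cycle inhibitor p21 that many other stimuli induce too, was 6.52-fold higher. Col3a1 was 5.40-fold, Postn, periostin, 3.86-fold, Jun 3.33-fold and Col1a1 2.52-fold higher. Acta2, smooth muscle actin, was at least 4.32-fold, Col1a2 at least 2.52-fold and Timp1, also counted by its deposited signals, at least 1.53-fold higher. Timp1 reached the floor only through the globule-containing array, and its bound lay below 2-fold. Of the 8 higher targets, the 3 collagens and Acta2 are also stellate cell markers. Among the 10 targets in no marker list 4 were higher by 2-fold or more, with a median of 0.74. Of 4 unsaturated BMP targets above the floor none was 2-fold apart, a count near the share of genes at large. Tbx3 was 1.56-fold higher, Atoh8 1.42-fold and Hes1 1.19-fold, and Prrx2 was above background on neither array. The hepcidin genes Hamp and Hamp2, the main hepatocyte targets of BMP signalling, were saturated on both arrays at signals from 19.72 to 19.84, so no difference can be read from them.

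Of 6 further receptors and coreceptors above the floor, 1 was higher and 1 lower by 2-fold or more, shares of 16.7% each. Of all genes, 6.47% were higher and 5.26% lower by as much, and 6 genes are too few to tell these shares apart. Tfr2, a hepatocyte iron sensor linked to BMP signalling, had 8.36 with globules and 10.58 without, 4.68-fold lower. Tmprss6, the protease that limits hepcidin induction, was 1.61-fold lower and Hfe 1.26-fold lower. Pdgfrb, listed here as a stellate cell receptor, was 2.97-fold higher, and Neo1 1.26-fold. Of 22 intracellular regulators above the floor, only Tgif1, a Smad corepressor, was apart by 2-fold or more, at 2.40-fold higher. That is a share of 4.55% against 6.47% of all genes, and so near the share at large. Tgfbrap1 was 1.95-fold, Fkbp1a, which binds the type I receptor, 1.83-fold and Tab2 1.60-fold higher, while Wwp1, a ubiquitin ligase, was 1.61-fold lower. The median of the 22 was 0.04.

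**Figure D4:**
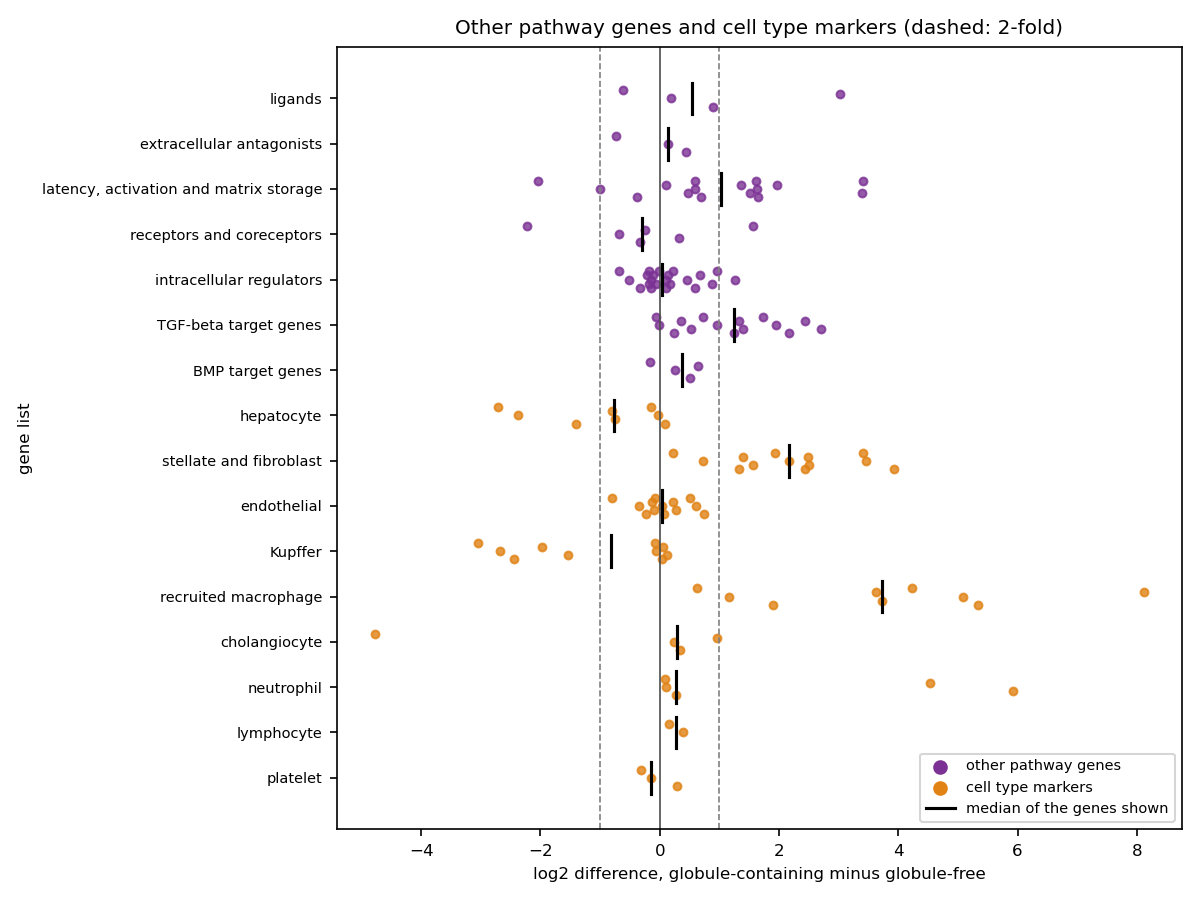
Difference (with minus without globules, log2) of the genes above the floor in each list of other pathway genes (purple) and cell type markers (orange), leaving out genes saturated on both arrays; black bars are medians and dashed lines mark 2-fold. Stellate cell markers centre on 2.17 and recruited macrophage markers on 3.73, endothelial markers on 0.04, and TGF-beta targets on 1.24, or on 0.74 for those in no marker list.

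Markers of other cell types differed between the same 2 arrays. Their counts stand beside 6.47% of all genes higher and 5.26% lower by 2-fold or more. Summed signals run over all genes of a list that were found. Of 13 stellate cell and fibroblast markers above the floor, 11 were higher by 2-fold or more in globule-containing areas and none lower, with a median of 2.17, and the log2 of their summed signal was 15.71 against 12.44. Des, desmin, was above background on neither array. Of 9 recruited macrophage markers, 8 were higher by 2-fold or more, with a log2 summed signal of 18.41 against 13.43. Of 10 Kupffer cell markers, 5 were lower by 2-fold or more, with 10.53 against 12.55. The other 5, Adgre1, C1qa, C1qb, C1qc and Folr2, had differences from -0.08 to 0.12, and the median of the 10 was -0.81. Of 13 endothelial markers above the floor none was 2-fold apart, with 12.18 against 12.03, and Tie1 and Vwf were above background on neither array. All 9 hepatocyte markers were above background on both arrays, 3 of them lower by 2-fold or more in globule-containing areas, with 21.71 against 22.04 and Alb saturated on both. Of 5 neutrophil markers above the floor 2 were higher by 2-fold or more, and of 4 cholangiocyte markers 1, Tff3, was lower by as much. The other 3 cholangiocyte markers, Epcam, Krt19 and Sox9, had positive differences within 2-fold, and the median of the 4 was 0.29. None of 2 lymphocyte and 3 platelet markers above the floor was 2-fold apart. The part of these cell types in the higher signals of Bmp5, Gdf2, Fstl1, Tgfbi, Eng, Tgfbr2 and the matrix genes, and in the lower signals of Inhbc and Inhbe, was not tested.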

How the data were processed

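The values are the authors' deposited log2 signals of 72688 probe sets on 2 arrays, a scale read from the values. Per the submitters' processing notes the authors used the Transcriptome Analysis Console. The sources used here give no version, background correction, normalization or build. Per the labels' protocols, PicoPure RNA (50 ng) was amplified with NuGEN Ovation WTA System V2.

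From there, 30604 probe sets that name 1 gene were kept (2146 name several, 39938 have none listed here), symbols were updated through Entrez IDs to RefSeq (GRCm38.p6; 22815 probe sets matched, 827 symbols changed), and probe sets of a gene were averaged. The floor is the median mean signal of these probe sets, and background the 95th percentile over 1721 probe sets of olfactory and vomeronasal receptors. Values within 0.2 of an array's highest were taken as saturated. In each list of other pathway genes, the 5 largest differences and all at least 2-fold are named. Members, lists and levels were chosen with earlier results of these data known. Array number limits precision. The counting was tested on simulated data. Alternatives were scaling, floor, threshold, choice of probe set, and dim or bright values. Work used Python 3.11.15, numpy 2.4.6, pandas 2.3.3, statsmodels 0.14.6 and matplotlib 3.10.9.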

Additional observations from a re-analysis of the deposited data

How the results depend on the processing

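Under every alternative but the fold threshold, 8 to 11 members were at least 2-fold higher, beside 3.41% to 8.59% of all genes. The 11 included Tgfb2, whose difference was -0.10 with dim values raised to background. At a 3-fold threshold 5 members were higher (beside 2.62% of all genes), and at a 1.5-fold threshold 15 (beside 16.02%). The count of members at least 2-fold lower stayed at 2, beside 2.87% to 6.59% of all genes, with these exceptions. It was 1 with the floor at the 75th percentile (beside 8.01%), 0 at the 3-fold threshold (beside 2.31%) and 3 at the 1.5-fold threshold (beside 11.89%). The median difference of the members was 0.15 with the arrays centred on their medians, against a median of -0.06 over all genes there, and 0.78 with the floor at the 75th percentile, which kept 18 members. With the arrays centred, 5.25% of all genes were higher and 6.59% lower by 2-fold or more. Of the 12 members at least 2-fold apart, 10 stayed so under all 3 other scalings, and Bmpr1a and Id3 did not. The difference of Tgfb3 was 0.76 with dim values raised to background. The sign of 5 members turned under a scaling: Ltbp3, Bmp4, Inha, Smad2 and Id4. No member at least 2-fold apart changed direction under the 10 alternatives run on each. No paired analysis was possible because each group is 1 array, and no replicate could be left out. Signals near background limit what can be measured for the 11 members above it on neither array.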
